A study of Trichoderma harzianum with 18 samples.

Results

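The gene described here is *cre1* of *Trichoderma harzianum*, locus tag M431DRAFT_502975 (protein model Triha1_502975), which was 1 of 14650 genes in the count and FPKM tables and was chosen by its locus tag, not by its values. FPKM is the number of fragments per kilobase of transcript, scaled to the number mapped in the library. In the assembly Triha v1.0 the gene spans positions 2646170 to 2647986 of its scaffold, a length of 1817 bases. The table used here gives no scaffold name and no exon structure.

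CRE1 is the fungal carbon catabolite repressor, a zinc finger protein that binds DNA and is known as CreA in *Aspergillus*. When a readily used sugar such as glucose is present, it holds down genes for the use of other carbon sources, among them genes for cellulases and xylanases. In *Trichoderma reesei* it acts beside XYR1, the activator of cellulase and xylanase genes, and the levels below are those of the *cre1* mRNA, since neither the protein nor its state was measured.

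The RNA came from the mycelium of *T. harzianum* CBS 226.95, either the wild type or the deletion strain Δ*xyr1-2*, in which a hygromycin resistance cassette replaced *xyr1*, and which is 1 single-spore-purified strain. Shake flask precultures had grown for 36 h on 1% D-fructose with peptone, and the washed mycelium was then moved for 18 h to 1% (w/v) microcrystalline cellulose, to 25 mM D-fructose or to medium without a carbon source. Each of the 6 groups of strain and carbon source had 3 libraries, 18 in all. The 3 sets of replicate cultures began from different spore plates, though no label says outright that the replicate number marks the set.

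The libraries held 16208381 to 21263103 reads on genes, of which *cre1* took 3469 to 18950, so counting error was small beside the spread between libraries. The deleted gene *xyr1* had 1272 to 13130 reads in the wild-type libraries and 0 to 11 in those of Δ*xyr1-2*. Of the libraries, wild type on cellulose replicate 3 stood furthest apart, with 1285 of 9892 genes more than 2-fold above both other libraries of its group and 1098 more than 2-fold below both. Δ*xyr1-2* on D-fructose replicate 1 followed with 942 above and 703 below of 9978 genes, and wild type on D-fructose replicate 3 with 631 and 823 of 10337. Folds and tests below use counts scaled by TMM, which assumes that most genes do not change. Its factors were 0.613 to 0.972 on D-fructose and in wild type on cellulose, and 1.18 to 1.29 without carbon and in Δ*xyr1-2* on cellulose. Values scaled to library size alone are therefore given where they alter a call. In bulk mycelium, fewer cells and less RNA per cell cannot be told apart.

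*cre1* was an abundant mRNA in every library. By FPKM it stood above 89.9 to 97.7% of the genes with a value over 0. On D-fructose the wild-type libraries had 397, 494 and 369 FPKM, a mean of 419.8 ± 65.7 (SD, n = 3). On the same sugar Δ*xyr1-2* had 370.1, 559 and 510.1 FPKM, a mean of 479.7 ± 97.9 (SD, n = 3). These 6 libraries held the highest *cre1* levels of the series, and the strains overlapped.

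On cellulose the wild type had 193, 249 and 327 FPKM, a mean of 256 ± 67.3 (SD, n = 3). Δ*xyr1-2* on cellulose had 189, 136 and 149 FPKM, a mean of 158 ± 27.6 (SD, n = 3). Its highest library lay just under the lowest wild-type library, so the strains did not overlap on cellulose, and the wild-type library with the most *cre1* was the one that stood furthest apart across genes.

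Without a carbon source the wild type had 138, 154 and 148 FPKM, a mean of 147 ± 8.31 (SD, n = 3) and the narrowest spread of the 6 groups. Δ*xyr1-2* without carbon had 321, 144 and 114 FPKM, a mean of 193 ± 112 (SD, n = 3) and the widest spread. Replicate 1 of that group was 2.48 times the mean of the other libraries, 129 FPKM (n = 2), while replicates 2 and 3 lay close to the starved wild type. In that library 175 of 10722 genes were more than 2-fold above both others of the group and 121 more than 2-fold below, and whether its *cre1* level has to do with this was not tested.

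**Figure D1:**
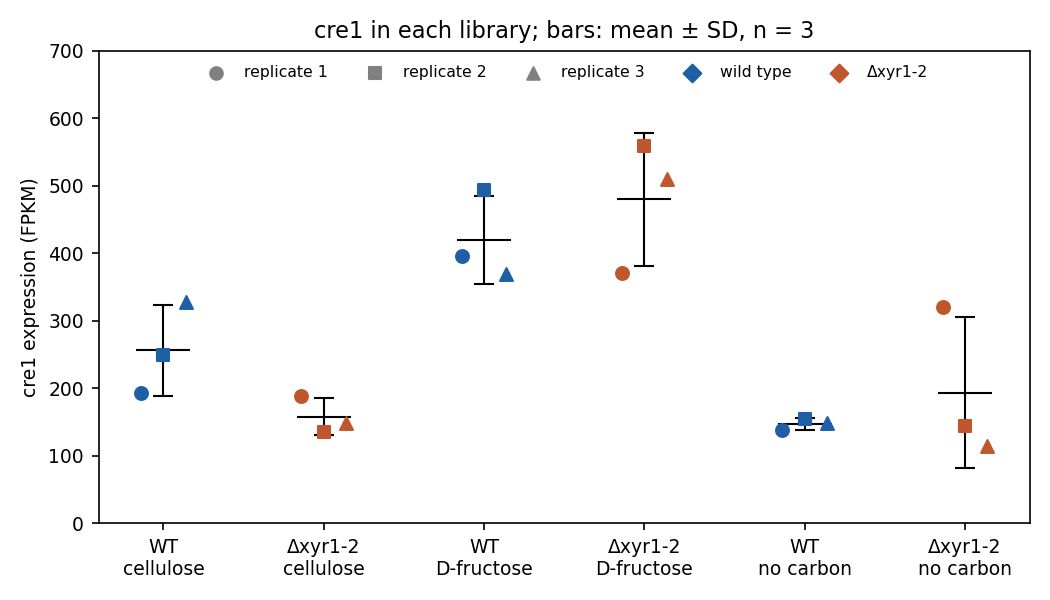
Level of *cre1* in FPKM (vertical axis, linear from 0) in each of the 18 libraries, by strain and carbon source (horizontal axis), with points for libraries and bars for the group mean ± SD (n = 3). The D-fructose libraries sit between 369 and 559 FPKM, the wild-type cellulose libraries between 193 and 327, and replicate 1 of Δ*xyr1-2* without carbon, at 321, lies away from the 144 and 114 of its group.

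From the highest to the lowest mean the order was Δ*xyr1-2* on D-fructose, wild type on D-fructose, wild type on cellulose, Δ*xyr1-2* without carbon, Δ*xyr1-2* on cellulose and wild type without carbon. The order was the same by FPKM and by TMM-scaled counts, but the fourth place rested on replicate 1 of Δ*xyr1-2* without carbon, since without it the group's mean of 129 FPKM was the lowest of the 6. Of the 5 pairs of neighbours in this order, 0 differed by the criteria used here for a call. A gene was called when the Benjamini-Hochberg adjusted p of edgeR's quasi-likelihood test across all genes was under 0.05, the fold was over 2 and the mean FPKM was over 1 in at least 1 group. The log2 differences between neighbours were 0.45, 0.55, 0.99, 0.31 and 0.11 down the order, with edgeR adjusted p-values of 0.628, 0.276, 0.0872, 0.931 and 0.762. The nearest to a call was wild type on cellulose against Δ*xyr1-2* without carbon, at 0.99 with a 95% interval of −0.02 to 2.00, which DESeq2 called at 1.09 (adjusted p = 0.0375) and edgeR called at 1.57 (adjusted p = 0.0132) without replicate 1 of the latter. Over all 14 alternatives tried for that pair the adjusted p ran from 0.0130 to 0.428.

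The comparison of the strains on cellulose asks how loss of *xyr1* goes with the *cre1* transcript when the carbon source is the polymer. *cre1* was lower in Δ*xyr1-2* by 2.58-fold, a log2 difference of −1.37 with an SE of 0.28 and a 95% interval of −2.03 to −0.71, and was called (edgeR adjusted p = 0.00679). It was lower by DESeq2 as well, at −1.41 (adjusted p = 6.48e-06). The paper already reports *cre1* as lower in this mutant on cellulose, from these same libraries. Here 4849 of 11479 genes tested, 42.2%, were called, 21.5% higher and 20.7% lower, and 17.6% of the genes tested had a lower log2 difference than *cre1*, so its change was of ordinary size among them.

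The size of this difference depended on the scaling. With library size alone it was −0.70 and not called (edgeR adjusted p = 0.0549), while the adjusted p over all 14 alternatives ran from 6.48e-06 to 0.0549, and the ratio of mean FPKM, which is not TMM-scaled, was 0.616. The same scaling moved the median of all genes to 0.68, so that *cre1* lay 1.38 below that median, which is close to the TMM value. A change of scaling shifts all genes by nearly the same amount, so this closeness cannot tell which scaling is right. Without wild type on cellulose replicate 3 the difference was −1.19 (edgeR adjusted p = 0.00201), and leaving out each library in turn gave −1.54 to −1.17, all of them called.

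On D-fructose the strains did not differ by these criteria. The log2 difference of Δ*xyr1-2* to the wild type was 0.45 with a 95% interval of −0.14 to 1.03 (edgeR adjusted p = 0.628). The TMM-scaled libraries of the strains did not overlap, with 1098 to 1197 CPM (counts scaled to library totals) in Δ*xyr1-2* and 729.5 to 923 in the wild type, whereas the FPKM values did. Only 0.00917% of the genes tested were called between the strains on this sugar, 1 of 10908, and that gene was the deleted *xyr1*.

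Without carbon the strains overlapped. The log2 difference was 0.42 with a 95% interval of −0.37 to 1.20 (edgeR adjusted p = 0.807), and it turned to −0.19 without Δ*xyr1-2* replicate 1. In this comparison 0.132% of genes were called, 15 of 11387. On both carbon conditions the intervals leave room for differences of 2-fold or more in favour of Δ*xyr1-2*.

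Within the wild type, starvation went with the largest change. *cre1* fell from D-fructose to the medium without carbon by 3.72-fold, a log2 difference of −1.89 with an SE of 0.18 and a 95% interval of −2.31 to −1.48 (edgeR adjusted p = 0.000215). All starved libraries lay below all D-fructose libraries, and 7.89% of the genes tested had a lower log2 difference. The call held under library size alone at −1.52, where the median of all genes was 0.42, and in each of the 14 alternatives (adjusted p 1.24e-34 to 0.00344). Of the genes tested here 29.9% were called, 14.4% higher and 15.5% lower without carbon.

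On cellulose the wild type kept more *cre1* mRNA than without carbon. The difference was 2.61-fold, a log2 difference of 1.38 with an SE of 0.21 and a 95% interval of 0.88 to 1.89 (edgeR adjusted p = 0.00225), in a comparison with 42% of the genes called. The libraries did not overlap. With library size alone the difference was 0.80 and under 2-fold (edgeR adjusted p = 0.0201, within 3.33e-09 to 0.0201 over the alternatives). The median of all genes moved to −0.65 and *cre1* stood 1.45 above it, which again cannot tell which scaling is right.

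Between cellulose and D-fructose the wild-type libraries of *cre1* did not overlap in FPKM, the highest on cellulose being 327 and the lowest on D-fructose 369, but the difference was not called. Its log2 value was −0.55 with a 95% interval of −1.26 to 0.17 (edgeR adjusted p = 0.276). The paper likewise reports that *cre1* was not higher on cellulose than on D-fructose in the wild type. Here 7.58% of genes were called, 828 of 10922. Libraries of these groups with the same replicate number deviated together, and with the replicate number as a block 2003 genes were called, while *cre1* stayed uncalled at −0.56 (edgeR adjusted p = 0.159, within 0.116 to 0.652 over the alternatives).

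In Δ*xyr1-2* the cellulose libraries lay far below the D-fructose libraries and overlapped those without carbon. From D-fructose to cellulose *cre1* fell by 4.90-fold, a log2 difference of −2.29 with an SE of 0.22 and a 95% interval of −2.81 to −1.78 (edgeR adjusted p = 0.000332). Only 6.72% of the genes tested had a lower log2 difference, in a comparison where 39.6% were called. With library size alone it was −1.60 (edgeR adjusted p = 0.00111), and the median of all genes was 0.76. Leaving out each library in turn, among them D-fructose replicate 1, gave −2.48 to −2.16.

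From D-fructose to no carbon *cre1* fell in Δ*xyr1-2* by 3.97-fold, a log2 difference of −1.99 with an SE of 0.40 and a 95% interval of −2.93 to −1.05 (edgeR adjusted p = 0.00522), and 39% of the genes tested were called. Without replicate 1 of the starved group the difference was −2.58. Between cellulose and no carbon the strain showed no called difference, with a log2 value of −0.31 and a 95% interval of −1.19 to 0.57 (edgeR adjusted p = 0.931). This value turned to 0.30 without replicate 1 of the starved group, and 0.0782% of genes were called, 9 of 11509.

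Whether the strains differed in their response to the carbon source was tested as an interaction over the 12 libraries concerned. From D-fructose to cellulose the response of Δ*xyr1-2* was lower than that of the wild type by 3.45-fold, a log2 difference of −1.79 with an SE of 0.37 and a 95% interval of −2.59 to −0.98 (edgeR adjusted p = 0.00303). Leaving out each library in turn gave −1.97 to −1.59, all called. In this test 42.5% of genes were called. With library size alone the value was −0.89 and not called (edgeR adjusted p = 0.0759, the highest over the alternatives, the lowest being 1.61e-07), at a median of all genes of 0.95.

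From no carbon to cellulose the response of Δ*xyr1-2* was lower by 3.48-fold, a log2 difference of −1.80 with an SE of 0.50 and a 95% interval of −2.89 to −0.71 (edgeR adjusted p = 0.0109), where 41.1% of genes were called. This value was −1.19 without Δ*xyr1-2* without carbon replicate 1, −1.10 and not called with library size alone (edgeR adjusted p = 0.0672, within 0.00126 to 0.0672 over the alternatives), and not called at an adjusted p of 0.01. The cellulose libraries are shared by both of these interactions, which are therefore not separate evidence. From D-fructose to no carbon the strain difference in the response was −0.10 with a 95% interval of −1.07 to 0.87 (edgeR adjusted p = 0.944). There edgeR called 0% of 11826 genes, with 973 at an unadjusted p under 0.05, and DESeq2 called 66.

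**Figure D2:**
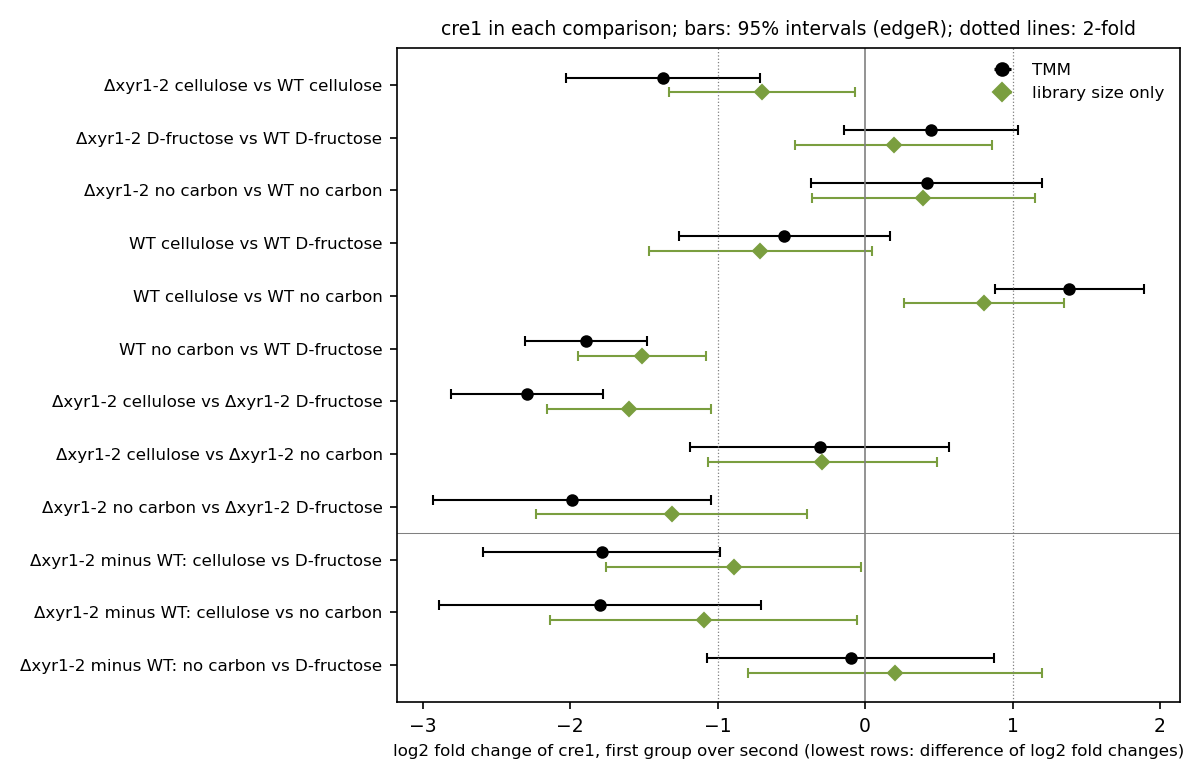
Log2 difference of *cre1* (horizontal axis) in each of the 9 pairwise comparisons and the 3 strain differences in response (vertical axis), as point and 95% interval from edgeR, with TMM scaling and with library size alone. The differences on D-fructose and without carbon between the strains have intervals across 0, while Δ*xyr1-2* on cellulose lies at −1.37 against the wild type and at −2.29 against its own D-fructose cultures.

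In every wild-type library the FPKM of *cre1* was above that of *xyr1*. On D-fructose *xyr1* had 33.7 ± 7.31 FPKM (SD, n = 3), and *cre1* was 15.4, 13.9 and 9.22 times as high in the 3 libraries. On cellulose *xyr1* had 72.6, 145 and 273 FPKM, and *cre1* was 2.66, 1.72 and 1.20 times as high. Without carbon *xyr1* had 61.9 ± 2.62 FPKM (SD, n = 3), and *cre1* was 2.13, 2.58 and 2.42 times as high. The ratios on D-fructose lay above all others, and those on cellulose and without carbon overlapped. The ratios were not tested. The wild-type cellulose library with the least *xyr1* also had the least *cre1*, and that with the most had the most, as a description of 3 libraries.

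The genes on either side of *cre1* were expressed at far lower levels. M431DRAFT_197046 ends 1074 bases before it, at positions 2644207 to 2645095, and had 6.27 to 16.2 FPKM. M431DRAFT_197121 starts 791 bases after it, at positions 2648778 to 2649879, and had 0.542 to 5.67 FPKM. Neither overlaps *cre1*, and the libraries held 71 to 190 and 10 to 113 reads of them. M431DRAFT_197121 was called lower, as *cre1* was, in Δ*xyr1-2* on cellulose against the wild type, at a log2 difference of −1.82 (edgeR adjusted p = 0.00852), and in the wild type without carbon against D-fructose, at −1.69 (edgeR adjusted p = 0.00233). Whether reads from one of these genes were counted for another was not tested. The counting was not stated to use strand.

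The genes whose pattern was most like that of *cre1* were found by the root mean square difference of centred log2 CPM over the 18 libraries, among 12057 genes. That measure had a median of 1.16 over all genes and was under 0.35 for 10 of them. The closest were M431DRAFT_1403 at 0.26, M431DRAFT_92966 at 0.30, M431DRAFT_73720 at 0.31, Novel00116 at 0.31 and M431DRAFT_509576 at 0.32, none of which has an annotated name or product in the sources used here. The libraries share depth and scaling with *cre1*, and the genes were picked for likeness, so their levels are a description without a test.

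These genes spanned levels from far below to above *cre1*. M431DRAFT_1403 had 965 to 1191 FPKM in wild type on D-fructose and 289 to 340.1 without carbon. On cellulose it had 373, 424 and 1115 in the wild type, where replicate 3 was at the level of D-fructose, and 266 to 332 in Δ*xyr1-2*. In Δ*xyr1-2* without carbon it had 746, 338 and 267 FPKM, with replicate 1 again far above the others, as for *cre1*.

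M431DRAFT_92966 had 649 to 881 FPKM in wild type on D-fructose, 205.7 to 215 without carbon, 480.4 to 805 in wild type on cellulose and 206 to 259 in Δ*xyr1-2* on cellulose. M431DRAFT_509576 had 1158 to 1532, 426 to 495, 592 to 925 and 440.4 to 523 FPKM in the same order. The wild-type libraries on cellulose and on D-fructose overlapped for M431DRAFT_92966, which they did not for *cre1*. M431DRAFT_509576 had 501, 548 and 583 FPKM in Δ*xyr1-2* without carbon and did not share its high replicate 1. M431DRAFT_73720 had 146 to 207 FPKM in wild type on D-fructose and 49.5 to 56.2 without carbon, and Novel00116 had 2.31 to 3.07 and 0.798 to 0.987 FPKM. On cellulose Novel00116 had 1.41, 1.52 and 2.74 FPKM in the wild type and 2.30, 0.856 and 0.820 in Δ*xyr1-2*, so that the strains overlapped, unlike for *cre1*. The list was the same 5 genes with library size alone. With log2 FPKM Novel00116 fell back to place 13, and when groups rather than libraries were compared only M431DRAFT_509576 remained among the closest 5, at the second place.

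**Figure D3:**
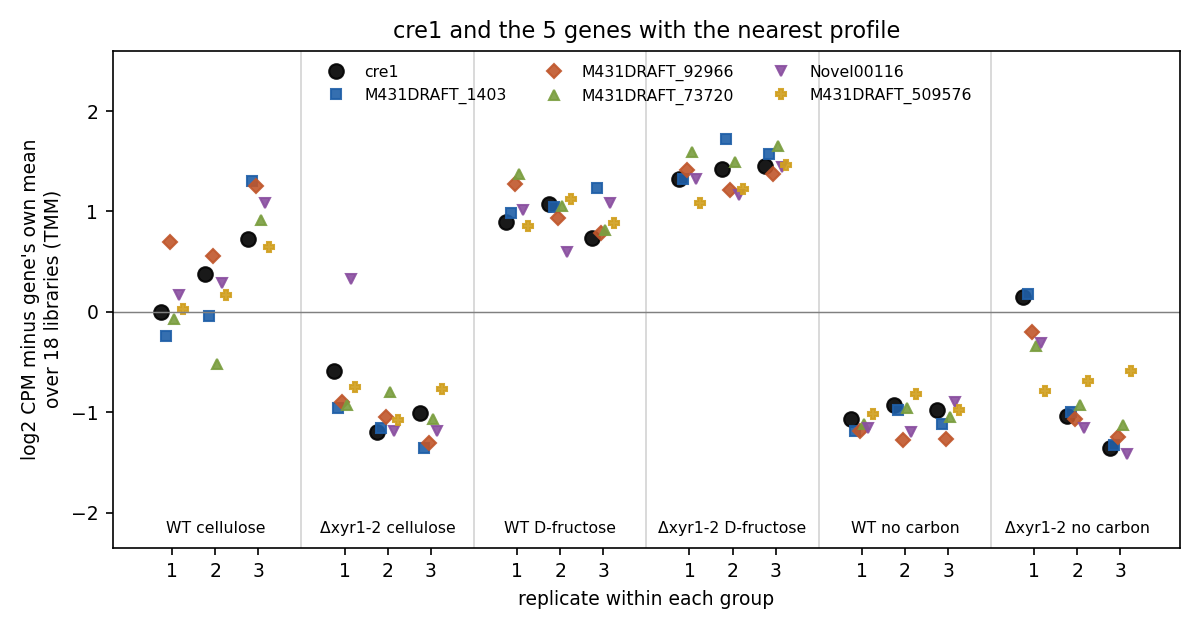
Centred log2 CPM (vertical axis) in the 18 libraries, ordered by group (horizontal axis), for *cre1* and the 5 genes closest to it. *cre1* varied with an SD of 1.02 over the libraries, and the 5 genes lay at a root mean square difference of 0.26 to 0.32 from it.

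Genes of carbon use that CRE1 is known to act on, or that stand for sugar sensing and metabolism, were counted from fixed lists in the comparisons where *cre1* was called between strains and under starvation. These lists rest on a supplementary sheet held only in part, and genes with few reads were not tested, so that a gene high in 1 group alone could pass. The counts are set beside the share over all genes. With library size alone 5478 of 11479 genes were called between the strains on cellulose, 4208 of them higher in Δ*xyr1-2*. The median of all genes was then 0.68. On cellulose, of 20 known or candidate targets and sensors, 3 were higher and 14 lower in Δ*xyr1-2*, against 21.5% and 20.7% of all genes. All 20 are also members of the lists counted below, which are therefore not separate evidence. With library size alone 3 were higher and 12 lower. Leaving out each library in turn gave 2 to 3 higher and 11 to 14 lower. *aldA*, higher at 1.03, was not called with DESeq2, RLE scaling or the replicate block, or without wild type on cellulose replicate 1. The median log2 difference of the 20 was −3.46, and it was 0.00 over all genes. The lower members included CEL7A, CEL6, CEL7B, EG III, GH10, GH11, CE5 and *xyl1*. The paper already reports cellulase, xylanase, CE5 and *xyl1* genes as lower in this mutant on cellulose. Their falls were thus known beforehand, and whether *cre1* has a part in them was not tested. In Δ*xyr1-2* on cellulose the libraries held 1 to 13 reads of CEL7B, 1 to 18 of GH10 and 2 to 6 of GH11. They held 0 to 3 of EG III and 0 of CE5. These genes passed the read filter through the wild type, so the 14 lower and the median of −3.46 rest in part on that filter.

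The lower targets included genes for extracellular enzymes and for sugar use. CEL7A, a cellobiohydrolase, had 2002, 1602 and 12216 FPKM in wild type on cellulose and 0.653, 8.99 and 0.595 in Δ*xyr1-2*. The wild-type libraries were far above those of the mutant, with replicate 3 alone at many times the others. *xyl1*, D-xylose reductase, fell from 1026 ± 236 to 119 ± 8.03 FPKM (SD, n = 3 each), a log2 difference of −3.79. *glkA*, glucokinase, fell from 516 ± 279.6 to 95.1 ± 2.30 FPKM (SD, n = 3 each), a log2 difference of −3.14. *hxkA*, hexokinase, was not called at −0.02. *acuD*, isocitrate lyase of the glyoxylate cycle, rose from 58.1 ± 9.48 to 343 ± 54.6 FPKM (SD, n = 3 each), a log2 difference of 1.88.

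*pdcA*, pyruvate decarboxylase, had 657, 44.5 and 29.5 FPKM in Δ*xyr1-2* on cellulose and a mean of 3085 in the wild type. Its log2 difference was −4.29 (edgeR adjusted p = 0.0317), and it was not called without wild type on cellulose replicate 1 or 2, at −4.22 and −4.19, or without Δ*xyr1-2* on cellulose replicate 2 or 3, at −3.73 and −3.71 (edgeR adjusted p = 0.0626 to 0.0742). Without Δ*xyr1-2* on cellulose replicate 1, which had 657 FPKM, it was −7.03 and called (edgeR adjusted p = 0.00158). Of 29 tested glycolysis genes 17 were lower and 1, *aldA*, higher, with a median of −1.59, and 11 were lower without Δ*xyr1-2* on cellulose replicate 2 or 3. With library size alone 13 glycolysis genes were lower and 2 higher, with a median of −0.89. Of 21 tricarboxylic acid cycle genes 15 were lower and 2 higher, with a median of −1.23, and 8 were lower with library size alone, where the median was −0.54. These lists moved in the direction of *cre1* in the comparison, and whether its change has a part in theirs was not tested.

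With TMM the pentose phosphate and other sugar catabolism lists had a weaker balance towards lower, and the transporters had the opposite balance. The biomass-degrading enzymes were mostly lower, with the lowest median of these lists. Of 9 tested genes of the pentose phosphate pathway 3 were lower and 1 higher, with a median of −0.57 that turned to 0.12 with library size alone, where 0 were lower and 1 higher. With the replicate block 1 was lower, as without wild type on cellulose replicate 1 or 2 or any 1 of the Δ*xyr1-2* cellulose libraries. Of 31 genes of other sugar catabolism 10 were lower and 3 higher, with a median of −0.60. With library size alone 4 were lower and 7 higher, at a median of 0.09, which lay below the 0.68 over all genes. With TMM 5 were higher without wild type on cellulose replicate 3. Of 79 tested sugar transporter genes 28 were higher and 13 lower, with a median of 0.93, and with library size alone 41 were higher and 11 lower, with a median of 1.61. Of 45 tested carbohydrate-active enzymes for plant biomass degradation 29 were lower and 6 higher, with a median of −6.88, and with library size alone 29 were lower and 10 higher, with a median of −6.23. Only 28 of these enzymes were tested between cellulose and no carbon within Δ*xyr1-2*. Part of the 45 thus passed the read filter through the wild type, and their count and median rest in part on that filter.

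**Figure D4:**
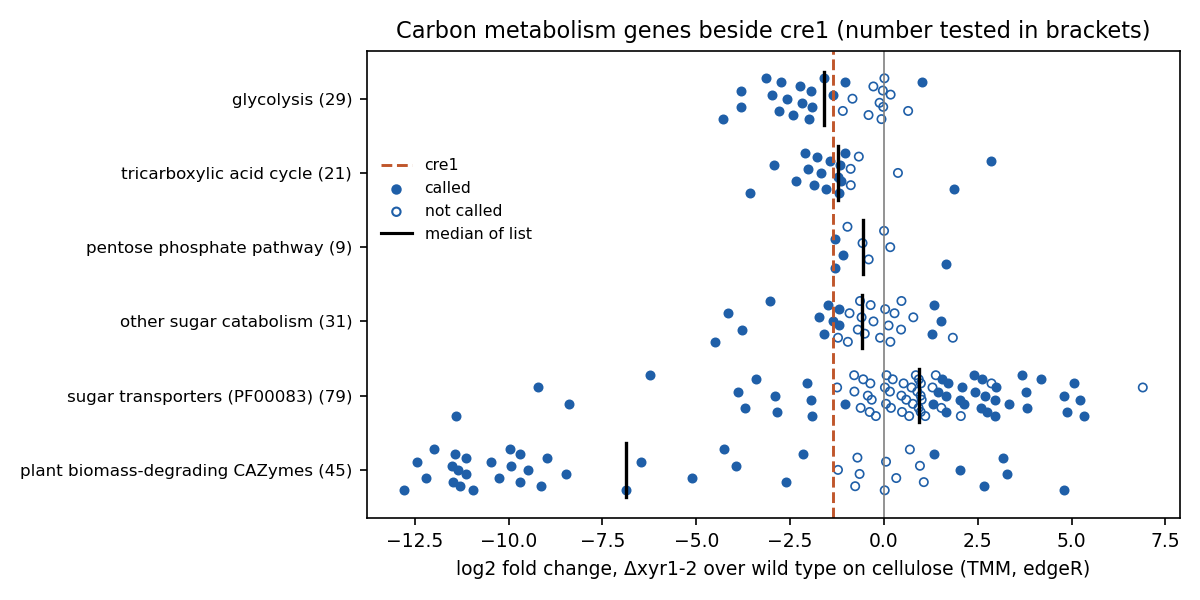
Log2 difference of Δ*xyr1-2* to the wild type on cellulose (horizontal axis, TMM scaling) for each tested gene of 6 lists of carbon use (vertical axis), with filled points for called genes, open points for the others, a bar at each list's median and a dashed line at *cre1*. The medians of glycolysis at −1.59 and the tricarboxylic acid cycle at −1.23 lie near the line at −1.37, that of the transporters at 0.93 lies on the other side of 0, and that of the biomass-degrading enzymes is −6.88.

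Fewer of these genes were called for the starved wild type. The share over all genes was lower too, 29.9% against 42.2% between the strains on cellulose. With library size alone 4049 of 11453 genes were called for the starved wild type, 2795 of them higher without carbon. The median of all genes was then 0.42. Of the 16 tested targets and sensors 2 were higher and 3 lower without carbon, against 14.4% and 15.5% of all genes, at a median of 0.05. With library size alone 3 were higher and 2 lower, at a median of 0.43, and *gpdA* was not called at −0.87. *adhA* was not called without wild type on D-fructose replicate 1 or wild type without carbon replicate 1 or 2 (edgeR adjusted p = 0.0566 to 0.0703). *pdcA* fell by 7.06 on the log2 scale, from a mean of 2059 to 20.3 FPKM. *lad1*, L-arabinitol dehydrogenase, rose by 2.11. Of 29 tested glycolysis genes 8 were lower and 0 higher, with a median of −0.69, and with library size alone 7 were lower and 1 higher, with a median of −0.31. Of 21 tricarboxylic acid cycle genes 1 was lower and 0 higher, with a median of −0.35, and with library size alone 0 were lower and 2 higher, with a median of 0.03. Of 76 transporters 23 were higher and 11 lower. The share of plant biomass-degrading enzymes that were lower was 5 of 27 tested, with 9 higher. The counts of this comparison and of that on cellulose were not tested against each other.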

How the data were processed

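Poly(A) RNA of 18 mycelium samples had been sequenced in pairs. The authors mapped reads to the *T. harzianum* CBS 226.95 genome with STAR (2.5.2b) and deposited read counts per gene from HTSeq (0.5.4), not normalized, and FPKM computed from them. The strand setting is not given in the sources used here. All 14290 annotated locus tags matched the gene table of assembly Triha v1.0, and 360 entries were new loci without annotation.

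Counts were analysed in R 4.3.3 with edgeR 4.0.16: TMM scaling, filterByExpr, and the quasi-likelihood test across all genes of the 6 libraries compared, or 12 for the differences in response, with Benjamini-Hochberg adjustment. A call required an adjusted p under 0.05, a fold over 2 and, outside the differences in response, a mean FPKM over 1 in a group. Intervals are 95%. FPKM served for levels only. The script was tested on simulated data. Alternatives were DESeq2 1.42.0, RLE or library size scaling, no filter, a fit of all 18 libraries, a block for the replicate number, an adjusted p of 0.01, no fold criterion, and each library left out. The members and lists were chosen with earlier results of these data known. Apart from *cre1* and *xyr1*, the genes named were drawn from a fixed list of 20 targets and sensors, not all of which are named. The others are the genes on either side of *cre1* and the 5 most like it. The sources here held no protein sequences or products, so paralogues were not searched for.

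Same-numbered libraries deviated together (r over 0.1 in all 3 pairs) in 2 of 15 pairs of groups: wild type on cellulose with wild type on D-fructose (0.39, 0.18 and 0.38) and Δ*xyr1-2* on cellulose with Δ*xyr1-2* without carbon (0.20, 0.18 and 0.13). P-values measure the spread between these cultures.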

Additional observations from a re-analysis of the deposited data

Results flagged for a closer look

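The strain difference in the response of *cre1* from D-fructose to cellulose, −1.79 on the log2 scale, was singled out because the interaction itself passed the test (edgeR adjusted p = 0.00303). The same held for the response from no carbon to cellulose, at −1.80 (edgeR adjusted p = 0.0109). Both rest on the same cellulose libraries, for which the paper already reports lower *cre1* in Δ*xyr1-2* than in the wild type.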

How the results depend on the processing

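Of the 96 alternatives to the 12 comparisons of *cre1*, libraries left out apart, 90 kept the direction and the side of the threshold. With library size alone the differences of Δ*xyr1-2* to the wild type on cellulose (−0.70), of wild type on cellulose to no carbon (0.80) and of the responses from D-fructose to cellulose (−0.89) and from no carbon to cellulose (−1.10) were no longer called, and that of the response from D-fructose to no carbon turned to 0.20. At an adjusted p under 0.01 the response from no carbon to cellulose (−1.80) was not called. The number of called neighbours in the order of groups was 1 with DESeq2 and 0 to 1 with a library left out. The cause was not tested.

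Of the 90 values with a library left out 86 kept direction and side. Without Δ*xyr1-2* without carbon replicate 1 the difference to the wild type turned to −0.19 and that of Δ*xyr1-2* on cellulose to no carbon to 0.30. The response from D-fructose to no carbon turned to 0.08 and 0.17 without replicate 2 or 3 of that group. Outside these 12 comparisons, wild type without carbon against Δ*xyr1-2* on cellulose turned to 0.0853 without replicate 1 of the latter. Left-out ranges were −0.19 to 0.69 (strains without carbon), −0.58 to 0.30 (Δ*xyr1-2*, cellulose to no carbon), −0.69 to 0.17 (response, D-fructose to no carbon) and −0.23 to 0.0853 (wild type without carbon to Δ*xyr1-2* on cellulose).

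With the replicate number as a block, *cre1* differed by −1.37 between strains on cellulose and by −1.78 and −1.77 in the responses to cellulose, and no call of *cre1* changed in the 12 comparisons.

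Counts of called genes varied more. Between strains on D-fructose 1 gene was called, against 110 with DESeq2, 113 with all libraries in one fit and 0 at an adjusted p under 0.01. Without carbon it was 15, against 24, 3 and 5, 7 with the block and 3 to 12 with a library left out. For wild type on cellulose against D-fructose it was 828, against 1659, 2293 and 211, 2003 with the block and 213 to 2867. For Δ*xyr1-2* on cellulose against no carbon it was 9, against 17, 5 and 4, 6 with the block and 4 to 8. For wild type without carbon against D-fructose it was 3423, and 5254 without the fold criterion. For the responses it was 5007 from D-fructose to cellulose, against 3040 at an adjusted p under 0.01, and 0 from D-fructose to no carbon, against 66 with DESeq2 and 0 to 15 with a library left out. With library size alone the share of calls that were higher went from 50.9 to 76.8% between strains on cellulose, from 47.3 to 24.8% for wild type on cellulose against no carbon, from 48.1 to 69.0% for wild type without carbon against D-fructose, from 49.6 to 79.4% and 48.0 to 78.3% for Δ*xyr1-2* on cellulose and without carbon against D-fructose, and from 50.4 to 79.8% and 51.5 to 79.0% for the responses to cellulose. The alternatives for the lists and for genes other than *cre1* were chosen after seeing the data.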
